A study of Arabidopsis thaliana with 8 samples.

Results

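Stems that overexpress ferulate 5-hydroxylase (F5H) were compared with wild-type (WT) stems of Arabidopsis thaliana on Affymetrix arrays. The arrays were chosen by title alone, 3 of the overexpressor (F5H-OE) and 3 of WT, which is 6 of the 8 arrays of the series. The other 2 arrays, of the F5H loss-of-function line fah-1, entered the estimate of the spread and are given beside the results. All plants were of the Columbia-0 ecotype, grew under long days and were 1.5 months old at harvest of the inflorescence stem. Each array measured the pooled stems of 5 plants, so the spread between arrays is a spread between pools. The sources used here do not give the promoter of the F5H transgene or whether the overexpressor is 1 transgenic line.

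F5H is the cytochrome P450 enzyme that adds a hydroxyl group to coniferaldehyde and coniferyl alcohol, the step that leads from guaiacyl to syringyl lignin units. The same phenylpropanoid route also yields sinapate esters and other soluble phenolics, which plants oxidise, glycosylate and transport. Families of enzymes, wall proteins, transporters and regulators are described here, and single genes are named as their members.

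Across all probe sets, 603 of 22746 (2.65%) were called at a limma adjusted p under 0.05, 293 higher and 310 lower in F5H-OE. F5H-OE replicate 1 stood apart. It correlated at 0.9853 and 0.9881 with the other F5H-OE arrays, which correlated at 0.9969 with each other. Its 3′ minus 5′ difference of the GAPDH controls was 1.473 on the log2 scale, against 0.51 to 0.853 in the other arrays, and a larger difference is a sign of RNA degradation. Without that array 1758 probe sets (7.73%) were called, and 602 of the 603 were among them in the same direction. The part of RNA quality in any result was not tested. Probe sets annotated to F5H were not found in the annotation used, so the targeted transcript was not checked here. In bulk stems, fewer cells of a type and less RNA per cell cannot be told apart.

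Among the 13356 genes that could be named, 319 (2.39%) were called, 151 higher (1.13%) and 168 lower (1.26%), with a median log2 fold change of -0.03. Without F5H-OE replicate 1, 923 (6.91%) were called, 485 higher (3.63%) and 438 lower (3.28%), and all 319 were among them. Recentring each array on its median turned that split to 424 higher and 492 lower, and the split with all arrays to 137 and 195. Only 1682 genes carried a name beyond their locus number, and 62 families and lists drawn from those names and from loci held 744 measured genes. Of these, 33 were called with all arrays and 83 without F5H-OE replicate 1. A called gene was found in 21 of the 62 families and lists. No family or list had more than 3 called members with all arrays.

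**Figure D1:**
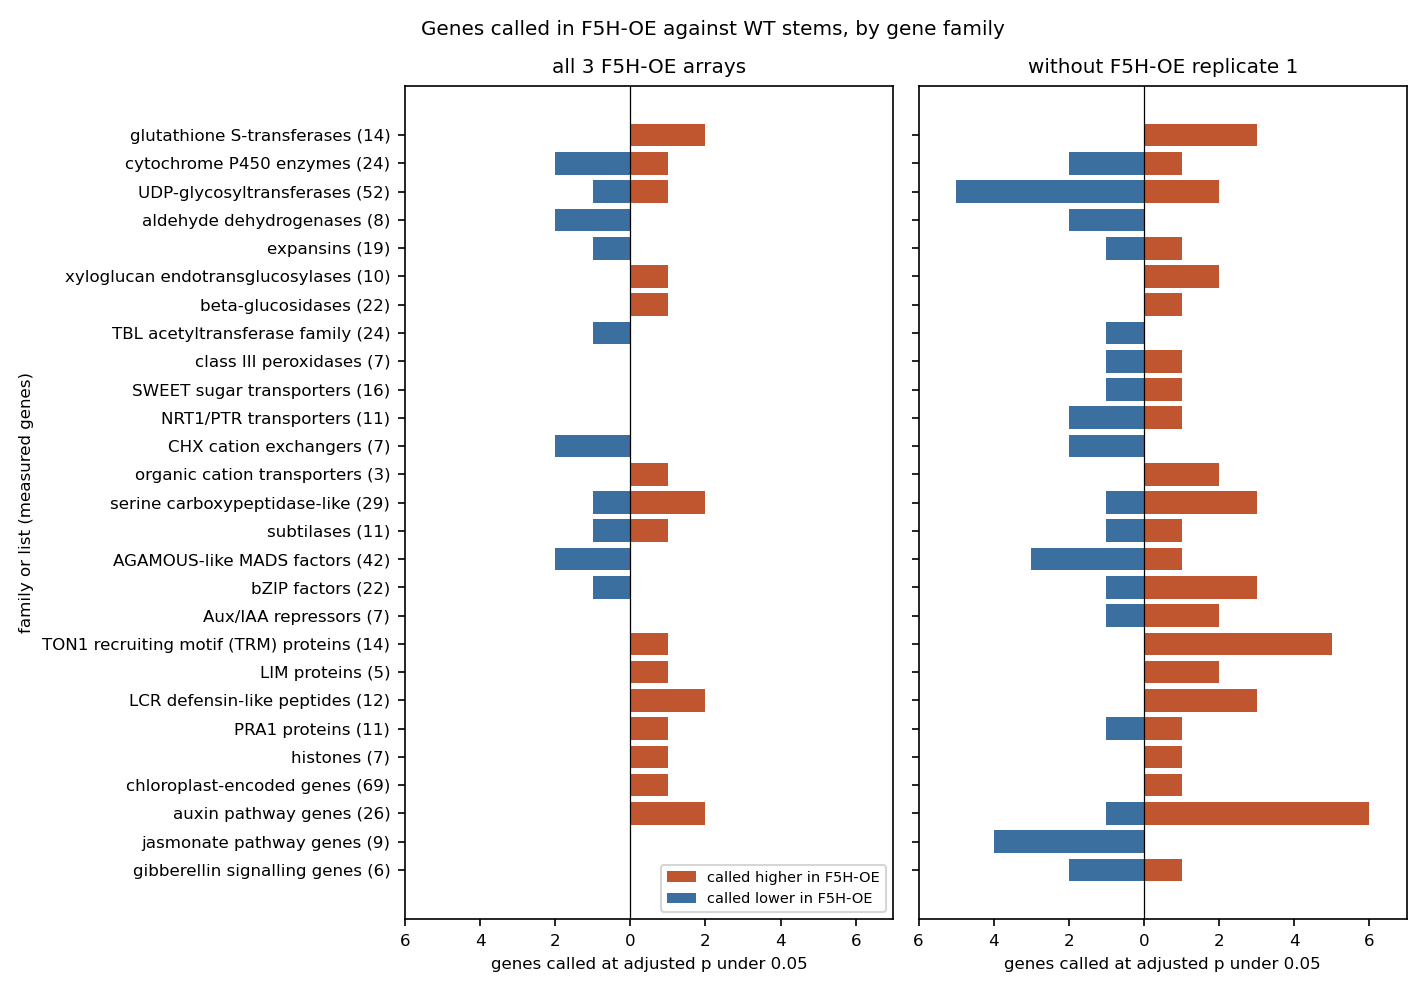
Horizontal bars give the number of genes called higher (right of 0) and lower (left of 0) in F5H-OE than in WT at an adjusted p under 0.05, for families with a call with all arrays or at least 2 calls without F5H-OE replicate 1. Measured genes of each family are in brackets. The TRM proteins went from 1 to 5 calls and the jasmonate list from 0 to 4 when F5H-OE replicate 1 was left out.

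The calls rested on few arrays. Of the 33 family genes called with all arrays, GSTU25, OCT5, ALDH6B2, GT72B1, AGL80, ARA12 and petG, 7 in all, were called under every alternative run for them. There were 18 for 5 of these genes and 17 for GSTU25 and petG, which a filter on mean level removed. For each of the 33 genes the WT and F5H-OE arrays did not overlap, which follows largely from being called on these same arrays. Leaving out WT replicate 1, 2 or 3 ended 9, 19 and 25 of the 33 calls. Leaving out F5H-OE replicate 2 or 3 ended 17 and 24 of them, and leaving out F5H-OE replicate 1 ended none. GSTU18, CYP71B22, UGT73B1, ALDH2C4, EXLB1, XTH19 and scpl42 lost their call when only the WT and F5H-OE arrays were fitted. So did SCPL34, ATSBT5.2, LCR68, WAG2, HAT2 and prenylated RAB acceptor 1.E.

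Enzymes that modify and conjugate small molecules held 9 of the 33 calls, 4 higher and 5 lower, among 110 measured genes (8.18% called, against 2.39% of all named genes). Of the 1682 genes with a name beyond their locus number, 3.03% were called. The families were written after values had been seen, so a higher share can be partly built in, and it was not tested. The 9 calls lay among glutathione S-transferases, cytochrome P450 enzymes, UDP-glycosyltransferases and aldehyde dehydrogenases. The 12 glutaredoxins, thioredoxins and sulfoxide reductases among the 110 had none. Both directions occurred, and sometimes within 1 subfamily.

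Glutathione S-transferases join glutathione to reactive compounds. Of 14 measured, 2 were called, both higher and both of the tau class (11 measured), and the family median was 0.16 on the log2 scale. GSTU25 (AT1G17180) read 12.5, 11.6 and 15.0 in the WT arrays and 217, 325 and 399 in the F5H-OE arrays. No WT array was above the TrpnX control, a probe set for a bacterial gene that serves as background, so its increase is a bound of at least 22.2-fold (limma adjusted p = 2.5e-05). The adjacent gene GSTU26 (AT1G17190) did not share this, at a log2 fold change of -0.16 ± 0.10 (SE; limma adjusted p = 0.449). GSTU18 (AT1G10360) read 459, 433 and 433 in WT and 545, 596 and 620 in F5H-OE. The groups did not overlap, and GSTU18 rose 1.33-fold (limma adjusted p = 0.0386, up to 0.162 over the alternatives). GSTU22, named after its values were seen, was called higher only without F5H-OE replicate 1, at a log2 fold change of 0.85 ± 0.11 (SE; limma adjusted p = 0.0043). With all arrays its log2 fold change was 0.62 (limma adjusted p = 0.142).

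Cytochrome P450 enzymes are the oxygenases to which F5H itself belongs. Of 24 measured, 1 was called higher and 2 lower, all 3 among the 19 CYP71B genes. CYP71B22 (AT3G26200) read 240, 271 and 203 in WT and 83.9, 153 and 99.4 in F5H-OE, a 2.17-fold decrease (limma adjusted p = 0.0321). CYP71B36 (AT3G26320) fell 1.48-fold, from 22.9, 21.7 and 23.2 to 16.3, 14.8 and 14.9 (limma adjusted p = 0.0148). Its F5H-OE readings were above the TrpnX control in each array but close to it. CYP71B26 (AT3G26290) went the other way, from 229, 204 and 206 in WT to 282, 322 and 316 in F5H-OE, a 1.44-fold increase (limma adjusted p = 0.0334). The WT and F5H-OE arrays did not overlap for any of these genes. All lie in 1 stretch of CYP71B genes on chromosome 3, and their immediate neighbours were not called. CYP71B21 and CYP71B23, on either side of CYP71B22, had log2 fold changes of 0.03 and -0.41, and CYP71B35 and CYP71B37, on either side of CYP71B36, had 0.22 and 0.04. Signal shared between such close copies was not tested. CYP84A4, the paralog of F5H and named after its values were seen, differed little, at -0.12 ± 0.12 (SE; limma adjusted p = 0.639). Over the alternatives the adjusted p of the 3 called genes reached 0.131 for CYP71B22, 0.14 for CYP71B26 and 0.0781 for CYP71B36.

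UDP-glycosyltransferases attach sugars to small molecules. Of 52 measured, 1 was called higher and 1 lower with all arrays, and 2 higher and 5 lower without F5H-OE replicate 1. The shares called were 3.85% and 13.5%, against 2.39% and 6.91% of all named genes. GT72B1 (UGT72B1, AT4G01070), which glucosylates monolignols and chlorinated phenols, read 2679, 2380 and 2359 in WT and 1078, 957 and 1290 in F5H-OE. It was lower in 3 of 3 F5H-OE arrays, a 2.24-fold decrease (limma adjusted p = 0.0029, at most 0.0162 over the alternatives). In fah-1 it read 2449 and 2919. UGT73B1 (AT4G34138) read 81.7, 152 and 204 in WT and 377, 486 and 506 in F5H-OE, a 3.32-fold increase (limma adjusted p = 0.0237, up to 0.101 over the alternatives).

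Some glycosyltransferases were called only without F5H-OE replicate 1. UGT85A2 (AT1G22360) read 220, 209 and 264 in WT and 229, 106 and 107 in F5H-OE. Replicate 1 lay within the WT range and the other pair below it, and the log2 fold change without it was -1.11 ± 0.11 (SE; limma adjusted p = 0.0014). UGT71C5 (AT1G07240), which glucosylates abscisic acid, read 652, 650 and 674 in WT and 549, 420 and 397 in F5H-OE. Its log2 fold change was -0.55 with all arrays (limma adjusted p = 0.0563) and -0.69 without replicate 1 (limma adjusted p = 0.0022). UGT85A4 and UGT76B1, named after their values were seen, had log2 fold changes of -0.71 and -0.75 in that fit (limma adjusted p = 0.0178 and 0.0209).

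Aldehyde dehydrogenases oxidise aldehydes to acids. Of 8 measured, 2 were called and both were lower. ALDH2C4 (REF1, AT3G24503) oxidises coniferaldehyde and sinapaldehyde to ferulate and sinapate. It read 1826, 1812 and 1973 in WT and 1141, 1296 and 1417 in F5H-OE, so the groups did not overlap. It fell 1.46-fold (limma adjusted p = 0.0318, up to 0.108 over the alternatives), and in fah-1 it read 1404 and 1620, below all WT arrays, with a log2 fold change of -0.31 (limma adjusted p = 0.951). ALDH6B2 (AT2G14170), a methylmalonate-semialdehyde dehydrogenase of valine breakdown, read 1212, 1283 and 1341 in WT and 764, 751 and 804 in F5H-OE. It fell 1.65-fold (limma adjusted p = 0.0031, at most 0.0186 over the alternatives), and fah-1 read 1302 and 1464.

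**Figure D2:**
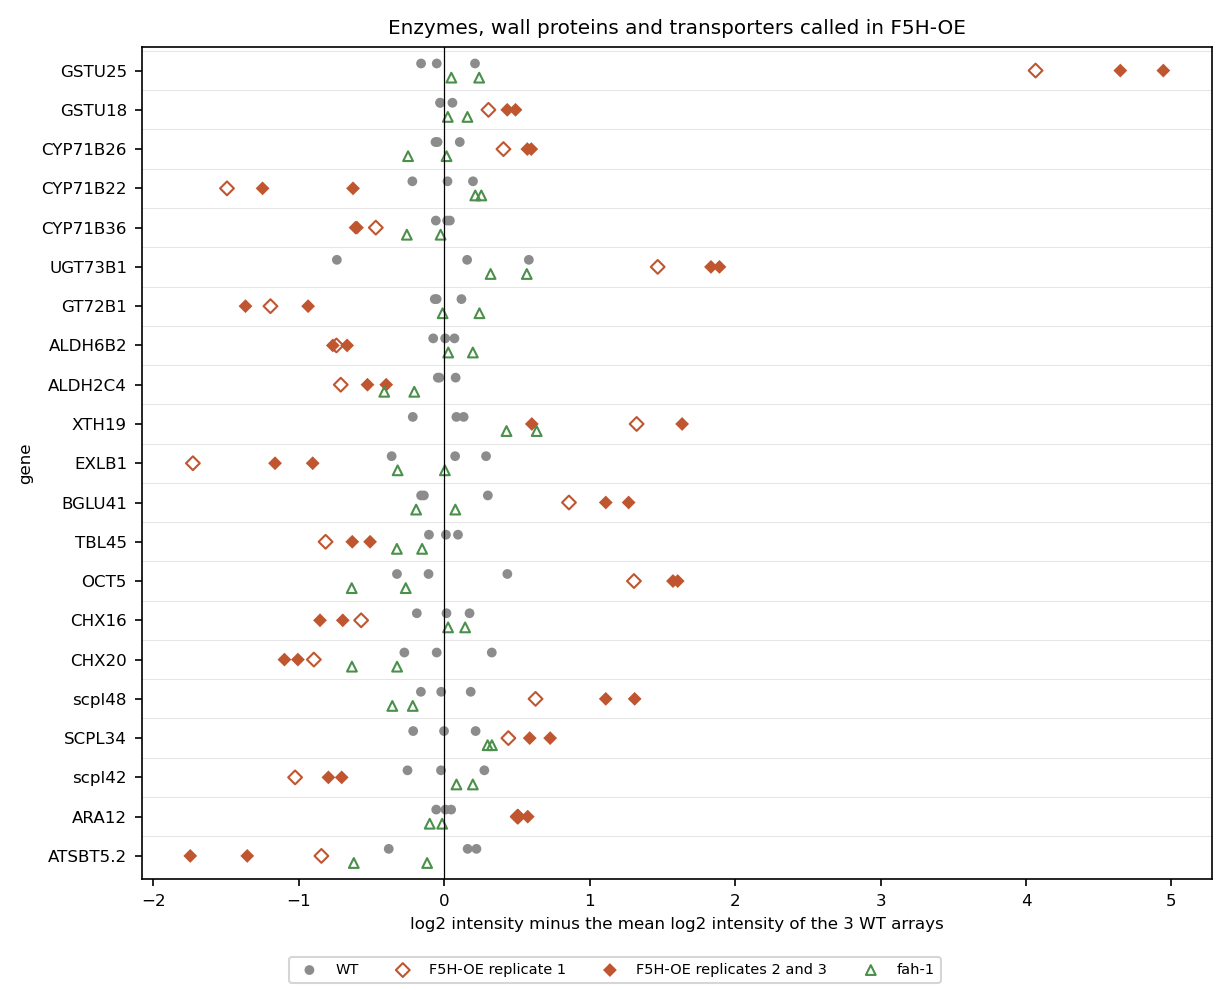
Points give the log2 intensity of each array minus the mean of the 3 WT arrays, for 21 enzymes, wall proteins and transporters called in F5H-OE (filled grey circles WT, open diamonds F5H-OE replicate 1, filled diamonds F5H-OE replicates 2 and 3, open triangles fah-1). Apart from GSTU25 the shifts were of similar size in all 3 F5H-OE arrays for genes such as ALDH6B2 and ARA12, and wider for XTH19 and ATSBT5.2.

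Wall proteins followed no common direction. Of 114 measured genes in 9 families, 2 were called higher and 2 lower (3.51% called, against 2.39% of all named genes). Expansins loosen walls, and of 19 measured EXLB1 (AT4G17030) alone was called, at 93.1, 146 and 126 in WT and 36.1, 63.9 and 53.4 in F5H-OE. It was 2.40-fold lower (limma adjusted p = 0.0308, up to 0.12 over the alternatives), with every F5H-OE array below every WT array. TBL45 (AT2G30010) belongs to a family of wall polysaccharide acetyltransferases and read 859, 748 and 811 in WT and 457, 565 and 519 in F5H-OE. It was the 1 call among 24 measured family members, at a 1.57-fold decrease (limma adjusted p = 0.0167, up to 0.072).

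Both wall calls in the other direction were glycoside-active enzymes. XTH19 (AT4G30290), a xyloglucan endotransglucosylase, read 68.2, 55.4 and 70.6 in WT and 161, 97.7 and 200 in F5H-OE, a 2.28-fold increase (limma adjusted p = 0.0426). Over the alternatives its adjusted p reached 0.157, and in fah-1 it read 100 and 86.6, also above WT. The adjacent XTH18 (AT4G30280), named after its values were seen, read 146, 34.3 and 106 in WT and 787, 208 and 329 in F5H-OE. Its log2 fold change of 2.22 ± 0.63 (SE) did not pass (limma adjusted p = 0.121). BGLU41 (AT5G54570), a beta-glucosidase, read 41.1, 30.3 and 29.9 in WT and 60.5, 72.1 and 80.4 in F5H-OE, a 2.11-fold increase (limma adjusted p = 0.012, up to 0.0564). It was the 1 call among 22 measured beta-glucosidases.

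Wall calls gained without F5H-OE replicate 1 were also in both directions. Class III peroxidases polymerise phenolics, and of 7 measured 1 was called higher and 1 lower in that fit. Of all named genes 3.63% were called higher and 3.28% lower there. PRX72 (AT5G66390), known for lignin polymerisation, had a log2 fold change of 0.70 ± 0.16 (SE; limma adjusted p = 0.0361) and AtPRX25 (AT2G41480) one of -0.99 ± 0.16 (SE; limma adjusted p = 0.0097). With all arrays their adjusted p values were 0.0871 and 0.312. A pectin methylesterase (ATPMEPCRD, AT2G43050), named after its values were seen, read 524, 571 and 485 in WT and 668, 1110 and 1081 in F5H-OE. All F5H-OE arrays were above WT, with a log2 fold change of 0.82 with all arrays (limma adjusted p = 0.0624) and 1.06 without replicate 1 (limma adjusted p = 8.7e-04).

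Among 45 measured transporters, 1 was called higher and 2 lower (6.67% called, against 2.39% of all named genes). CHX proteins exchange cations for protons, and 2 of 7 were called, both lower. CHX20 (AT3G53720), which acts in guard cells, read 446, 294 and 343 in WT and 191, 177 and 166 in F5H-OE, a 2.00-fold decrease (limma adjusted p = 0.0158). CHX16 (AT1G64170) read 112, 129 and 144 in WT and 85.9, 78.7 and 70.6 in F5H-OE, a 1.63-fold decrease (limma adjusted p = 0.0179). The groups did not overlap for either gene, and the adjusted p reached 0.0781 and 0.0802 over the alternatives. Organic cation transporters numbered 3, and OCT5 (AT1G79410) rose 2.82-fold, from 136, 198 and 117 in WT to 362, 436 and 446 in F5H-OE (limma adjusted p = 0.0075, at most 0.0405). In fah-1 OCT5 read 94.3 and 122.

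The glucosinolate transporters GTR1 and GTR2 and the sucrose exporter SWEET11 were called lower without F5H-OE replicate 1 and not with all arrays. Of 11 NRT1/PTR transporters, 1 was called higher and 2 lower in that fit, against 3.63% and 3.28% of all named genes. The 2 were GTR1 (AT3G47960) and GTR2 (AT5G62680), which import glucosinolates, and the higher one, NRT1/PTR family 3.1 (AT1G68570), named after its values were seen, had a log2 fold change of 0.70 (limma adjusted p = 0.0074). GTR1 read 1548, 1365 and 1180 in WT and 2343, 478 and 582 in F5H-OE, so that replicate 1 was the highest of these arrays and the other pair the lowest. Its log2 fold change was -0.65 with all arrays (limma adjusted p = 0.559) and -1.36 ± 0.13 (SE) without replicate 1 (limma adjusted p = 0.0013). GTR2 read 1354, 1229 and 980 in WT and 930, 547 and 504 in F5H-OE, all below WT, with log2 fold changes of -0.89 (limma adjusted p = 0.0988) and -1.16 (limma adjusted p = 0.0045).

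SWEET11 (AT3G48740), which exports sucrose for phloem loading and was the 1 phloem marker of 6 that could be named, read 312, 552 and 916 in WT. In F5H-OE it read 576 in replicate 1 and 58.7 and 90.4 in replicates 2 and 3. The WT arrays themselves spread widely, and the log2 fold change was -1.90 with all arrays (limma adjusted p = 0.256). Without replicate 1 it was -2.89 ± 0.39 (SE; limma adjusted p = 0.0049). SWEET13 (AT5G50800) had a log2 fold change of 0.78 in that fit (limma adjusted p = 0.0191), and the other 14 of 16 SWEET genes were not called in either fit.

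Peptidases included 5 calls among 87 genes of protein processing and turnover, 3 higher and 2 lower. The share called was 5.75%, against 2.39% of all named genes. Serine carboxypeptidase-like proteins include acyltransferases that build sinapate esters as well as peptidases, and of 29 measured 2 were called higher and 1 lower. The scpl48 gene (AT3G45010) read 1533, 1209 and 1332 in WT and 2088, 2918 and 3349 in F5H-OE, a 2.02-fold increase (limma adjusted p = 0.0217, up to 0.0933). SCPL34 (AT5G23210) rose 1.50-fold, with an adjusted p of 0.0489 that lay next to the threshold and was above it in 12 of 18 alternatives. The scpl42 gene (AT5G42240) read 156, 225 and 183 in WT and 91.3, 114 and 107 in F5H-OE, a 1.79-fold decrease (limma adjusted p = 0.023, up to 0.0851).

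Subtilases are serine proteases of the wall space. Of 11 measured, ARA12 (AT5G67360), known for its part in seed coat mucilage release, was called higher and ATSBT5.2 (AT1G20160) lower. ARA12 read 597, 581 and 556 in WT and 820, 860 and 821 in F5H-OE, with fah-1 at 572 and 539. It rose 1.44-fold (limma adjusted p = 0.0075, at most 0.0384 over the alternatives). ATSBT5.2 read 769, 528 and 802 in WT and 383, 205 and 269 in F5H-OE. It fell 2.49-fold (limma adjusted p = 0.0373, up to 0.138), and fah-1 at 634 and 447 overlapped WT.

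Cytoskeletal families comprised 62 measured genes. With all arrays 2 were called higher and 0 lower (3.23% called, against 2.39% of all named genes). Without F5H-OE replicate 1, 9 were called higher and 1 lower, against 3.63% and 3.28% of all named genes in that fit. The higher calls lay in 4 families. TON1 recruiting motif (TRM) proteins recruit regulators of cortical microtubule arrays, LIM proteins bundle actin, tubulins form microtubules and SPIRAL1-like proteins bind them. The lower call, IQD22 of the IQ-domain family, named after its values were seen, had a log2 fold change of -1.03 (limma adjusted p = 0.0179). The TRM median log2 fold change was 0.23 with all arrays and 0.30 without replicate 1, against -0.03 and -0.02 for all named genes. TRM24 (AT5G51850) read 16.6, 12.5 and 13.4 in WT, where 1 of 3 arrays was above the TrpnX control, and 26.1, 27.6 and 22.3 in F5H-OE. It rose 1.79-fold (limma adjusted p = 0.0129, up to 0.0575). PLIM2b (AT1G01780) read 109, 109 and 93.5 in WT and 165, 156 and 150 in F5H-OE, a 1.51-fold increase (limma adjusted p = 0.0399, up to 0.124).

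The 7 further higher calls came without F5H-OE replicate 1, which was lower than the mean of replicates 2 and 3 for each of the 7 genes. That follows largely from their choice as genes called higher only without that array. TRM22 (AT1G67040) read 32.3, 30.0 and 31.1 in WT and 32.1, 48.5 and 45.4 in F5H-OE, with a log2 fold change of 0.59 ± 0.08 (SE) in that fit (limma adjusted p = 0.0049). TRM19 (AT3G53540) read 99.9, 82.2 and 77.4 in WT and 80.5, 125 and 127 in F5H-OE (limma adjusted p = 0.0267, up to 0.161 over the alternatives). For both genes replicate 1 lay within the WT range. TRM15, TRM20, WLIM1, TUA6 and SP1L5, named after their values were seen, had log2 fold changes of 0.52, 0.37, 0.59, 0.31 and 0.87 in that fit. Their adjusted p values ran from 0.0046 for WLIM1 to 0.0468 for TUA6. The NETWORKED and myosin families had no call in either fit.

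**Figure D3:**
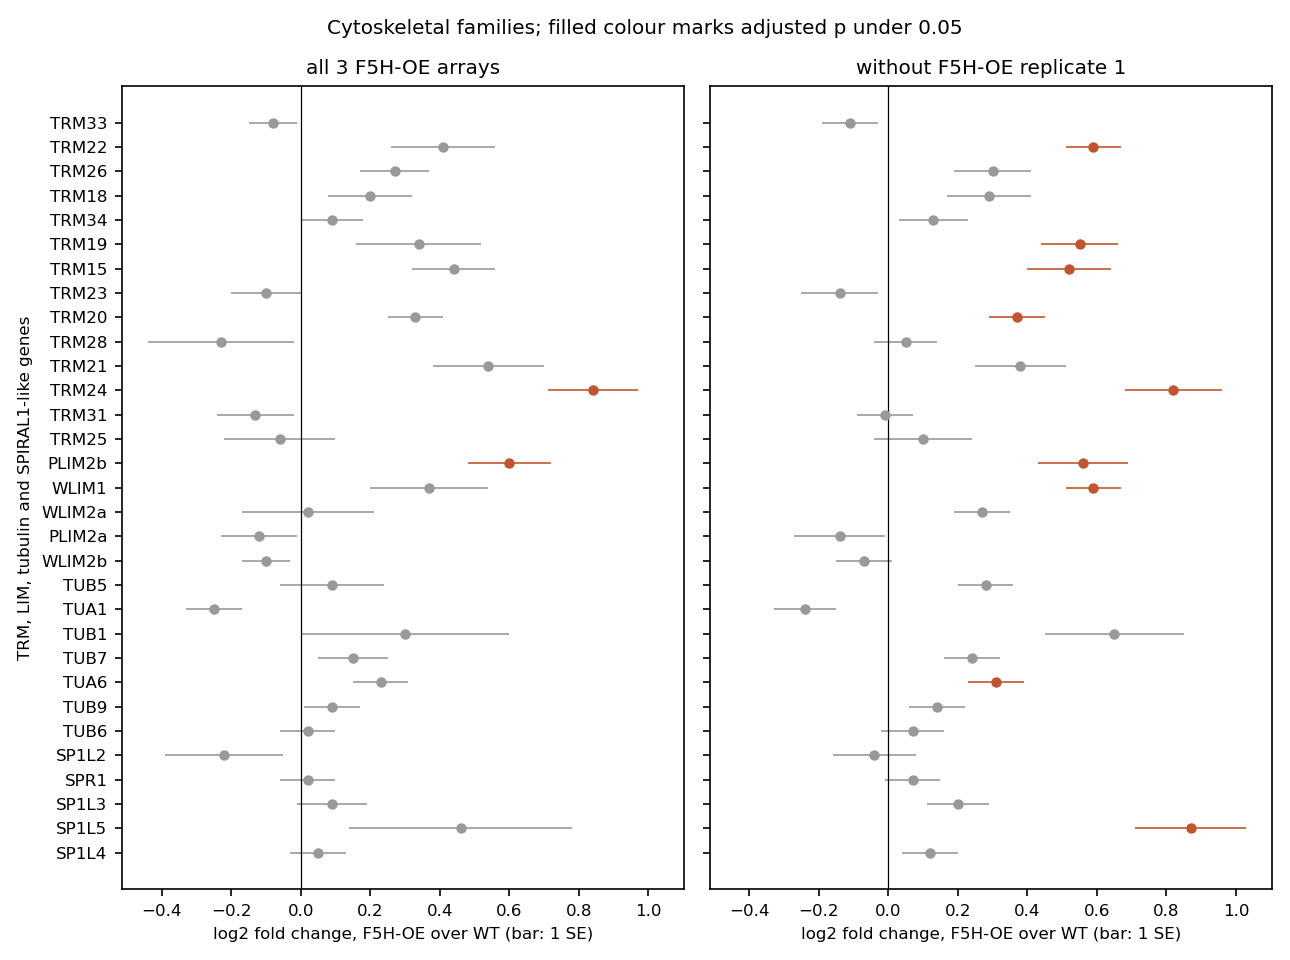
Points give the log2 fold change of F5H-OE over WT with bars of 1 SE for every measured TRM, LIM, tubulin and SPIRAL1-like gene, with all arrays (left) and without F5H-OE replicate 1 (right). Coloured points passed an adjusted p of 0.05, 2 on the left and 9 on the right. The families were put together after their values were seen, and IQ-domain proteins, with 1 lower call, are not drawn.

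Small secreted peptides of the LCR group, which resemble defensins, included 2 higher calls among 12 measured. Of all named genes 1.13% were called higher. LCR68 (AT2G02130) read 1487, 1706 and 1195 in WT and 2343, 2372 and 2356 in F5H-OE, a 1.63-fold increase (limma adjusted p = 0.0287, up to 0.109). The adjacent LCR70 (AT2G02120) read 31.6, 33.7 and 30.2 in WT and 63.4, 64.7 and 47.1 in F5H-OE, a 1.82-fold increase (limma adjusted p = 0.0255, up to 0.0934). No array of F5H-OE overlapped WT for these genes. LCR69, a near neighbour on the same stretch of chromosome 2, had a log2 fold change of 0.64 (limma adjusted p = 0.0932) with all arrays and 0.43 (limma adjusted p = 0.0287) without replicate 1. LCR72, on the other side, had one of 0.01. RALF-like, CLE and calmodulin-like families had no call among 26 genes.

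Called genes often had called genes near them. Among the 316 called named genes of chromosomes 1 to 5, 28.8% had at least 2 other called genes among their 20 nearest named genes, against 10.1% of all 13217 named genes there. Among the 32 called family genes of these chromosomes the count was 10 (31.2%). These were LCR68 and LCR70, the 3 CYP71B genes, PLIM2b, ALDH6B2, XTH19, AGL80 and AGL62, and members of 1 family counted for each other.

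**Figure D4:**
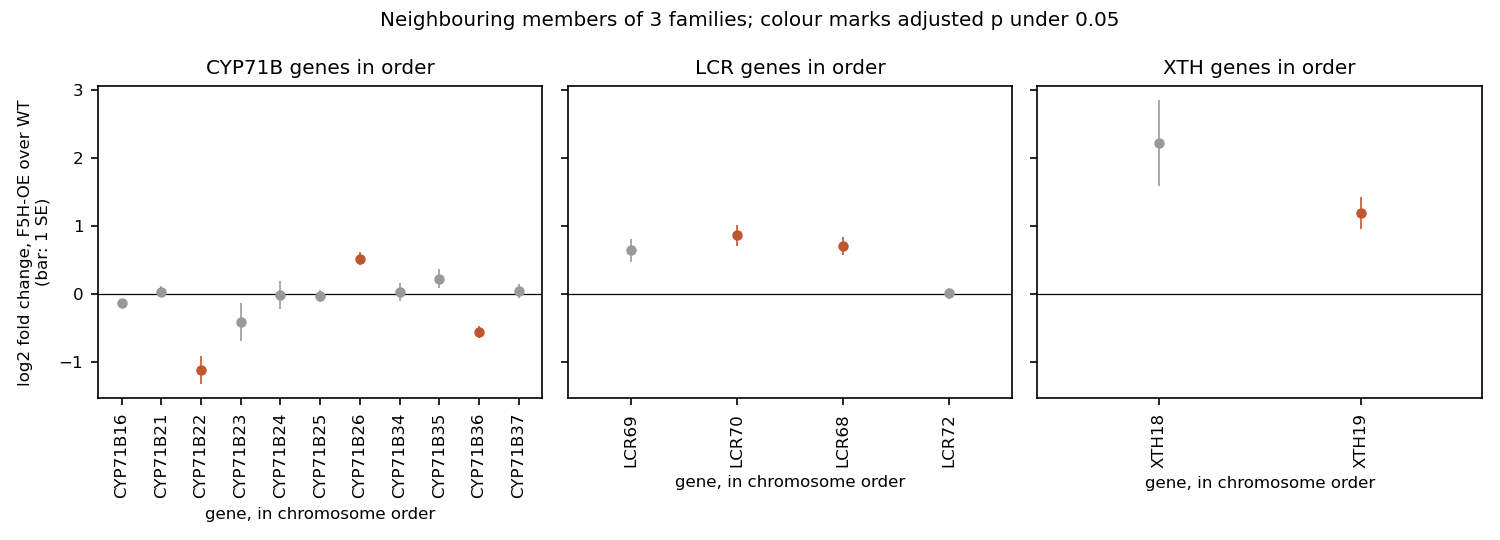
Points give the log2 fold change of F5H-OE over WT with bars of 1 SE for neighbouring CYP71B, LCR and XTH genes in chromosome order, and coloured points passed an adjusted p of 0.05. Called CYP71B genes lie on both sides of 0 among uncalled copies, while LCR69, LCR70 and LCR68 all lie above 0.

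Transcription factor and hormone response families held 3 calls among 99 genes, all lower (3.03% called, near the 2.39% of all named genes). Without F5H-OE replicate 1 the same families had 7 calls higher and 6 lower (13.1% called, against 6.91% of all named genes). The difference in share was not tested. Among 42 AGAMOUS-like MADS factors, AGL80 (AT5G48670), known for its role in the female gametophyte, read 139, 121 and 143 in WT and 86.9, 77.9 and 81.4 in F5H-OE. It fell 1.63-fold (limma adjusted p = 0.0054, at most 0.0326). AGL62 (AT5G60440), known from the endosperm, was also called lower (limma adjusted p = 0.0141). It was above the TrpnX control in 1 of 3 WT arrays and in none of the F5H-OE arrays, so no fold is given. The bZIP factor bZIP48 (AT2G04038) read 33.2, 32.3 and 36.2 in WT and 20.3, 18.6 and 17.0 in F5H-OE, a 1.82-fold decrease (limma adjusted p = 0.0106, up to 0.0525).

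Without F5H-OE replicate 1 further genes of these families were called in both directions. AT1G30260 was counted among the MADS factors by the name AGL79 alone, which it shares with another locus. Whether it encodes such a factor was not checked. AT1G30260 had a log2 fold change of -0.89 ± 0.12 (SE; limma adjusted p = 0.0046). AGL24 (AT4G24540), a promoter of flowering, had one of 0.63 ± 0.12 (SE; limma adjusted p = 0.0204). bZIP58 (AT1G13600) had one of 1.10 ± 0.21 (SE; limma adjusted p = 0.0178) and bZIP43 (AT5G38800), not above the TrpnX control in WT, was at least 1.26-fold higher over the 3 F5H-OE arrays (limma adjusted p = 0.0149 without replicate 1). The 7 WRKY factors and 6 response regulators measured had no call in either fit.

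The few calls among auxin genes were mostly higher. Of 26 genes of auxin transport, response and conjugation, 2 were called higher and 0 lower with all arrays, and 6 higher and 1 lower without F5H-OE replicate 1. Of all named genes 1.13% were higher and 1.26% lower in the first fit and 3.63% and 3.28% in the second. The list was written after values had been seen. Its median log2 fold change was -0.01 and 0.04, against -0.03 and -0.02 for all named genes. With all arrays 13 of its genes were above 0 and 13 below. WAG2 (AT3G14370), a kinase of auxin transport, read 27.9, 26.8 and 19.6 in WT and 39.8, 62.4 and 63.2 in F5H-OE, a 2.21-fold increase (limma adjusted p = 0.0265, up to 0.107). HAT2 (AT5G47370), an auxin-induced homeodomain factor, read 1046, 826 and 682 in WT and 1316, 2028 and 2072 in F5H-OE, a 2.11-fold increase (limma adjusted p = 0.0338, up to 0.134). In both genes all F5H-OE arrays were above WT, and replicate 1 was the lowest of them.

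The further auxin calls came without F5H-OE replicate 1. IAA30 (AT3G62100), an Aux/IAA protein, read 113, 90.5 and 72.9 in WT and 131, 188 and 188 in F5H-OE, with an adjusted p of 0.0502 with all arrays and 0.0077 without replicate 1 (limma). WES1 (AT4G27260) of the GH3 family, which conjugates auxin to amino acids, read 220, 326 and 256 in WT and 212, 668 and 544 in F5H-OE. Replicate 1 was below all WT arrays and the other pair above them, with a log2 fold change of 1.19 ± 0.17 (SE; limma adjusted p = 0.0056) without replicate 1. IAA20 and the auxin glucosyltransferase gene UGT74D1, named after their values were seen, had log2 fold changes of 0.66 and 1.05 in that fit (limma adjusted p = 0.034 and 0.0119). IAA18 (AT1G51950) was the exception, at 1322, 1007 and 648 in WT and 646, 251 and 304 in F5H-OE. Its log2 fold change was -1.38 with all arrays (limma adjusted p = 0.0994) and -1.78 without replicate 1 (limma adjusted p = 0.0061).

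Some jasmonate genes were called lower in the fit that kept F5H-OE replicates 2 and 3. Of 9 measured genes of jasmonate synthesis, signalling and response, none was called with all arrays. Without replicate 1, 4 were called lower, against 3.28% of all named genes in that fit. The list was written after values had been seen. In that fit its median log2 fold change was -0.19, against -0.02 for all named genes, with 4 genes above 0 and 5 below. JRG21 (AT3G55970), a jasmonate-regulated gene, read 190, 212 and 187 in WT and 366, 57.2 and 44.5 in F5H-OE. Replicate 1 was thus above all WT arrays and the other pair far below, and no call was made with all arrays (limma adjusted p = 0.497). Without replicate 1 its log2 fold change was -1.96 ± 0.20 (SE; limma adjusted p = 0.0015). ORA47 (AT1G74930), an activator of jasmonate synthesis genes, read 174, 141 and 104 in WT and 132, 53.4 and 52.9 in F5H-OE (limma adjusted p = 0.227 and, without replicate 1, 0.0068).

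OPCL1, an enzyme of jasmonate synthesis named after its values were seen, read 1243, 2145 and 984 in WT and 1930, 385 and 569 in F5H-OE. Its log2 fold change without replicate 1 was -1.56 ± 0.30 (SE; limma adjusted p = 0.0199), and that of the jasmonate factor MYC3 was -0.58 ± 0.14 (SE; limma adjusted p = 0.0431). In F5H-OE replicate 1 JRG21, OPCL1, ORA47 and MYC3 were 2.86, 2.04, 1.31 and 0.49 higher on the log2 scale than the mean of replicates 2 and 3. These genes were picked as called lower only without that array, so a higher value in it follows largely from the choice. Replicate 1 is also the array with the larger GAPDH difference, and a part of RNA quality was not tested. In fah-1 JRG21 read 150 and 243 and ORA47 162 and 207, overlapping WT.

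Of 6 gibberellin signalling genes, 1 was called higher and 2 lower without replicate 1, against 3.63% and 3.28% of all named genes, and none with all arrays. SLY2 (AT5G48170), an F-box protein, had a log2 fold change of 0.47 ± 0.11 (SE; limma adjusted p = 0.0371) in that fit. SPY (AT3G11540), a repressor of gibberellin responses, had one of -0.43 ± 0.10 (SE; limma adjusted p = 0.0347). The receptor gene GID1B, named after its values were seen, had one of -0.77 ± 0.18 (SE; limma adjusted p = 0.0438).

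**Figure D5:**
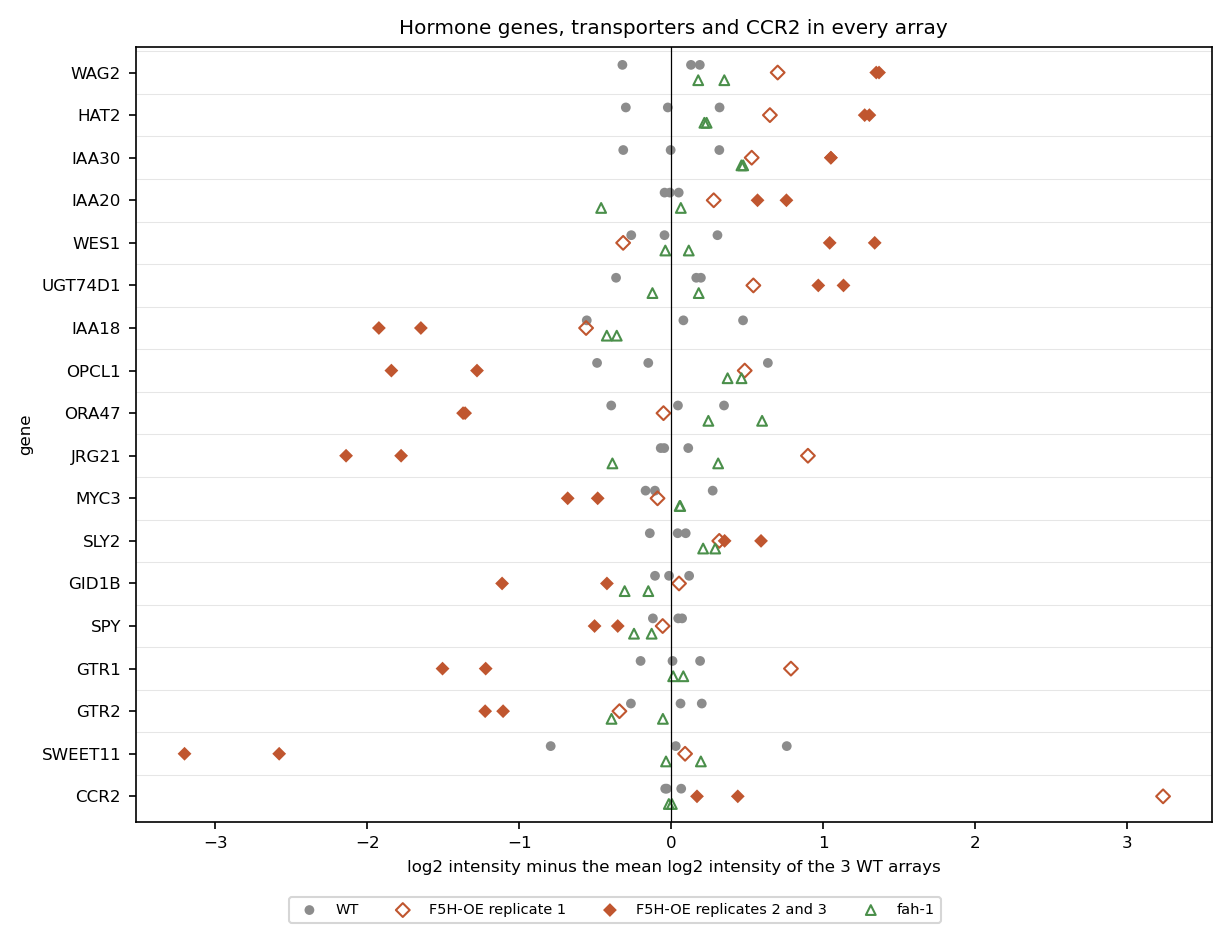
Points give the log2 intensity of each array minus the mean of the 3 WT arrays for auxin, jasmonate and gibberellin genes, 3 transporters and CCR2 (symbols as for the enzymes). F5H-OE replicate 1 (open diamonds) sits near or above WT for JRG21, OPCL1, GTR1 and SWEET11, where replicates 2 and 3 are low, and it alone is high for CCR2.

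Few genes of the lignin route itself could be named. Of 18 genes of monolignol synthesis 2 had a named probe set. HCT (AT5G48930), the shikimate hydroxycinnamoyl transferase, read 4802, 3776 and 4078 in WT and 4217, 4019 and 5021 in F5H-OE, which overlap (log2 fold change 0.07 ± 0.13, SE; limma adjusted p = 0.838). CCR2 (AT1G80820), a cinnamoyl-CoA reductase, read 45.5, 42.6 and 42.3 in WT and 410, 48.9 and 58.9 in F5H-OE. Its log2 fold change of 1.28 ± 0.69 (SE; limma adjusted p = 0.384) came mostly from replicate 1, and without that array it was 0.31 ± 0.10 (SE; limma adjusted p = 0.107). Of 14 photosynthetic tissue markers 2 were named, RCA with a log2 fold change of 0.03 and a light-harvesting protein gene (AT5G01530) with one of 0.00. Their WT means were high, at 10386 and 10685, and whether the arrays could show a change at that level was not tested. No gene of the xylem, epidermis or flower marker lists could be named, so the share of those tissues was not checked.

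Families of general cell functions held 2 calls among 108 genes (1.85%, near the 2.39% of all named genes), both higher. HTB1 (AT1G07790), a histone H2B gene, read 294, 280 and 213 in WT and 415, 499 and 474 in F5H-OE, a 1.77-fold increase (limma adjusted p = 0.023, up to 0.0977). It was the 1 call among 7 histone genes. The chloroplast gene petG, for a small subunit of the cytochrome b6f complex, read 15.5, 15.2 and 16.5 in WT and 30.6, 25.6 and 25.2 in F5H-OE. It rose 1.72-fold (limma adjusted p = 0.0048, at most 0.0271), while 68 other chloroplast-encoded genes were not called. The WT readings of petG were above the TrpnX control in each array but close to it. Of 53 genes of membrane traffic the 1 call was prenylated RAB acceptor 1.E (AT1G08770), at a 1.32-fold increase (limma adjusted p = 0.0416, up to 0.165).

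The fah-1 comparison, which uses the same WT arrays, called 2 of 22746 probe sets (0.00879%), both lower, by limma. At an unadjusted p under 0.05 there were 1142 probe sets in fah-1 and 3989 in F5H-OE. The fah-1 count is near the number that this threshold would pass with no change. The fah-1 line had 2 arrays and F5H-OE 3. None of the 33 called family genes was called in fah-1. QQS (AT3G30720), outside the families and named after its values were seen, was called lower in both lines. Its log2 fold change was -2.84 in fah-1 (limma adjusted p = 0.033) and -1.52 in F5H-OE (limma adjusted p = 0.0133). For the genes called under every alternative run for them, log2 fold changes are given side by side. For GSTU25, OCT5, ALDH6B2 and GT72B1 they were 0.14, -0.45, 0.11 and 0.12 in fah-1, against 4.55, 1.49, -0.73 and -1.17 in F5H-OE. For AGL80, ARA12 and petG they were -0.07, -0.06 and 0.05, against -0.71, 0.53 and 0.78. A difference between the lines was not tested.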

How the data were processed

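RNA of inflorescence stems was measured on 1-colour Affymetrix arrays. The authors deposited linear intensity values for each probe set, made with RMA per the submitters' processing notes, which give no version. RMA makes arrays alike in distribution, so a shift of most transcripts would not show. The design had assumed log2 values, so log2 was taken here of the deposited intensity, with no pseudocount. Leaving out 64 controls gave 22746 probe sets. Group means of all 8 arrays were fitted in R 4.3.3 with limma 3.58.1 by lmFit and eBayes (2-sided, Benjamini-Hochberg over all probe sets, threshold 0.05), and every adjusted p is limma's. The fit was tested on simulated data. Printed folds are from log2 means. Tables were made with Python 3.11.15.

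Of the probe sets, 13513 had 1 gene in the platform annotation, 503 several and 8730 were not listed. Of the first, 13436 matched a gene table of the TAIR10.1 assembly, and each gene is given by its probe set of highest mean. That table also gave chromosome order. The build behind the values is not known here, and coordinates are left out. No named gene had several listed probe sets. A gene above the highest TrpnX control in no array of a group is given as a bound, with that level in place of its lower values.

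The members and lists were chosen with earlier results of these data known. Families were taken by symbol or synonym stem, since descriptions were not in the tables, and the final families and the hormone lists were written after values had been seen. Named genes were, per family with at least 2 calls, up to 4 by smallest adjusted p, in other families the 1 called gene, up to 2 of those called only without F5H-OE replicate 1 where there were at least 2, and up to 4 members of the pathway and marker lists. Alternatives were other scalings, filters, spreads, array weights, an added 16 before log2, a replicate block and each array left out. Same-numbered WT and F5H-OE arrays deviated together at 0.172, 0.333 and -0.025, so the numbers were not taken to pair them.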

Additional observations from a re-analysis of the deposited data

How the results depend on the processing

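The 603 calls of F5H-OE against WT became 379 with WT and F5H-OE arrays only, 2526 with array weights and 401 with the replicate block, whose numbers were not taken to pair samples. Leaving out each array in turn gave 237 (F5H-OE replicate 3) to 1758 (F5H-OE replicate 1), with 267 and 283 without WT replicate 2 or 3, 358 without F5H-OE replicate 2 and 379 without either fah-1 array. Other settings gave 540 to 669, and recentring on the array medians split 622 calls into 264 higher and 358 lower, against 293 and 310. Without F5H-OE replicate 1 it split 1757 calls into 783 higher and 974 lower, against 884 and 874. The 1758 calls without F5H-OE replicate 1 became 542 and 533 without replicate 2 or 3 as well, when 1 F5H-OE array is left and assumed to vary like the others, and 1411 to 2318 without a WT array. The 2 calls in fah-1 became 1 with a robust spread or with 16 added before log2, and leave-one-out values ran from 1 (each WT array, F5H-OE replicate 3 or fah-1 replicate 2 left out) to 3. No named gene's fold change that was called turned its sign under an alternative. Called family genes kept their direction under recentring and repeated quantile normalization, but not all kept their call. With all arrays SCPL34 lost it under both, prenylated RAB acceptor 1.E under recentring and XTH19 under quantile normalization. Among named genes IAA30 gained a call under recentring and PRX72 under quantile normalization. Of 21 family genes named as called only without F5H-OE replicate 1, 7 were called under each of 17 alternatives, and 14 lost the call without F5H-OE replicate 2 too. The few arrays limit the precision, and AGL62 in F5H-OE and bZIP43 in WT were not above the TrpnX control.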
